A study of Mus musculus with 11 samples.

Results

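The 9 genes described here encode enzymes of the urea cycle and of glutamine metabolism, namely *Cps1*, *Otc*, *Ass1*, *Asl*, *Arg1*, *Arg2*, *Glul*, *Gls2* and *Glud1*. They were taken by name from a count table of 24849 genes, and 9 of 9 were found in it. The table covers 11 RNAseq libraries of polyadenylated RNA from AML12 cells, a mouse hepatocyte line: 4 KO, 3 WT and 4 KI. The WT cells are the unedited line. A WT library is labelled WT 5-6, and whether it pools replicates is not stated in the sources used here. In the KO cells *Txndc5*, which encodes a disulfide isomerase of the endoplasmic reticulum, was cut with CRISPR/Cas9, a puromycin resistance cassette was inserted by homology-directed repair, and the cells were selected for it. The labels call this genotype a TXNDC5 Knockdown. The KI cells carry a TXNDC5 Knockin at the ROSA26 locus and are described as overexpressing the protein. AML12 cells come from a mouse with a transgene for human TGF alpha, which all 3 groups share, and they were kept in medium with serum, insulin, transferrin, selenium and dexamethasone. Nothing in the sources used here says that the libraries of a group came from separate cultures or clones, so p-values measure only the spread between these libraries, which may be technical.

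The urea cycle turns ammonia into urea and runs in full mainly in the liver. In hepatocyte mitochondria CPS1 joins ammonia and bicarbonate into carbamoyl phosphate, and OTC passes the carbamoyl group to ornithine to form citrulline. In the cytosol ASS1 couples citrulline to aspartate, ASL splits the product into arginine and fumarate, and arginase releases urea and ornithine. Glutamine carries nitrogen between tissues: glutamine synthetase, encoded by *Glul*, makes it from glutamate and ammonia, glutaminase splits it again, and glutamate dehydrogenase, encoded by *Glud1*, interconverts glutamate and 2-oxoglutarate. In liver, urea cycle enzymes and the glutaminase GLS2 are mainly periportal, whereas glutamine synthetase is confined to a narrow perivenous layer.

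The KO libraries held 30380360 to 38422243 counts each, the WT libraries 29840366 to 30364098 and the KI libraries 32360709 to 35335070. Levels are given as CPM, the counts scaled to a common library size, with edgeR's TMM factors computed over all 11 libraries, and fold changes come from separate fits of each pair of groups. The scaling changed the values. When library totals replaced TMM, the median over all tested genes of the log2 fold change moved from -0.03 to 0.38 in KO against WT and from -0.02 to 0.31 in KI against WT, and the share of higher genes among those called moved from 48.4% to 72.8% and from 50.2% to 76.3%. *Txndc5*, the targeted gene, was at 10.2 ± 1.90 CPM in the KO (SD, n = 4), 143 ± 4.37 in the WT (SD, n = 3) and 169 ± 10.2 in the KI cells (SD, n = 4). It fell by 3.82 on the log2 scale in the KO cells (adjusted p = 4.09e-08). All adjusted p-values come from the quasi-likelihood test of edgeR, adjusted by Benjamini-Hochberg over every tested gene. In the KI cells its log2 fold change was 0.24 (adjusted p = 0.136, the same test), which did not pass the threshold of 0.05, although the 4 KI libraries lay above the 3 WT libraries. With library totals it passed at 0.57 (adjusted p = 0.00623, edgeR). The summed level of 9 hepatocyte markers was between 7382 and 11586 CPM in every library and none of the 9 was at 0, so markers of the labelled cell type were present. They did not move together: in KO against WT 4 of the 9 were higher, among them *Alb* (log2 fold change 2.99) and *Apoa1* (3.82). The 3 that were lower were *Serpina1a* (-3.78), *Trf* (-1.16) and *Ttr* (-0.93). Over all tested genes of that comparison 26.7% were called higher and 28.4% lower.

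The sequences upstream of the annotated start are shown for the 3 members with the highest level per kilobase in the KO cells. The 250 bases before the RefSeq start (GRCm38.p6, plus strand in each case) are given 5′ to 3′, with GC boxes (GGGCGG) and CCAAT boxes (CCAAT), on either strand, in capitals. The promoter table used here holds 4 of the 9 members. The windows lie at chr1:153899679-153899928 (*Glul*), chr14:34310477-34310726 (*Glud1*) and chr2:31470020-31470269 (*Ass1*).
Glul: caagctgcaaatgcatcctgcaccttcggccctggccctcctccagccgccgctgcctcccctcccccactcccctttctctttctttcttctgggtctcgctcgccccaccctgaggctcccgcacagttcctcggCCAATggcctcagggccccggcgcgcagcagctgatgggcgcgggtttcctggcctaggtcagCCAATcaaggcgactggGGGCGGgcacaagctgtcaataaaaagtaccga
Glud1: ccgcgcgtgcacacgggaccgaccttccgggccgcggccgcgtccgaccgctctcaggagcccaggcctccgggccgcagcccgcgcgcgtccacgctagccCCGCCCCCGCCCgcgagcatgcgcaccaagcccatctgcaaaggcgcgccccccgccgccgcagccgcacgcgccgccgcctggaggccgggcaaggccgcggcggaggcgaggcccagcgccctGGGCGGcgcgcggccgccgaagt
Ass1: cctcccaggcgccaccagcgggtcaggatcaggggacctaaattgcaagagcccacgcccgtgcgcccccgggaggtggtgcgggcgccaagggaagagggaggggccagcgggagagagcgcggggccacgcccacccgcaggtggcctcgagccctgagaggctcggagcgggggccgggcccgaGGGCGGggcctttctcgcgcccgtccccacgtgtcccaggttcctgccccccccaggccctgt

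The GC content of these windows was 64.8% for *Glul*, 82% for *Glud1* and 75.6% for *Ass1*, against a median of 52.4% over 32851 promoters of the same length. The *Glul* window held 1 GC box and 2 CCAAT boxes, the *Ass1* window 1 GC box, and the *Glud1* window 3 GC boxes, with no overlap between matches. A GC box was present in 32.7% of all promoters and a CCAAT box in 33.8%. Another 6 motifs were searched on both strands and had no match in the 3 windows: TATAAA (12.4% of all promoters), the cAMP response element half-site TGACG (17.8%), the C/EBP motif TTGCNNAA (9.56%), the glucocorticoid receptor half-site AGAACA (16.1%), the TCF/LEF motif CTTTGA (13.8%) and the ATF4 motif TGATGNAA (3.45%).

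The KO cells had more *Ass1*, *Glul* and *Cps1* mRNA than the WT cells and less *Gls2*, *Arg2* and *Asl* mRNA. Of the 9 members 7 passed the filter on low counts, and 6 of these were called, 3 higher and 3 lower, where 55.1% of all 13359 tested genes were called, 26.7% higher and 28.4% lower. The groups did not overlap for these 6, as for 55.3% of all tested genes. The KI cells had less of 5 members, *Ass1*, *Asl*, *Arg2*, *Glul* and *Gls2*, with 6 tested and none called higher. Over all 13534 genes of that comparison 42.3% were called, 21.2% higher and 21.0% lower, and 44.7% did not overlap between the groups, as the 5 members did not. Between the edited lines, 6 of 7 tested members were called, 4 higher in the KO and 2 higher in the KI cells, where 54.0% of 13269 genes were called, 27.0% in each direction, and where 48.6% did not overlap between the groups, as the 6 members did not. *Cps1* passed the filter only through the KO libraries, and *Arg2* passed it in the KO comparisons only through the WT or KI libraries, where each was high, so that such a gene had to differ once it was tested. These counts of tested members are therefore no measure of the 9 genes, and calls were common among all genes. Both comparisons with WT used the same 3 libraries. In bulk RNA, fewer cells that express a gene and less RNA per cell cannot be told apart.

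**Figure D1:**
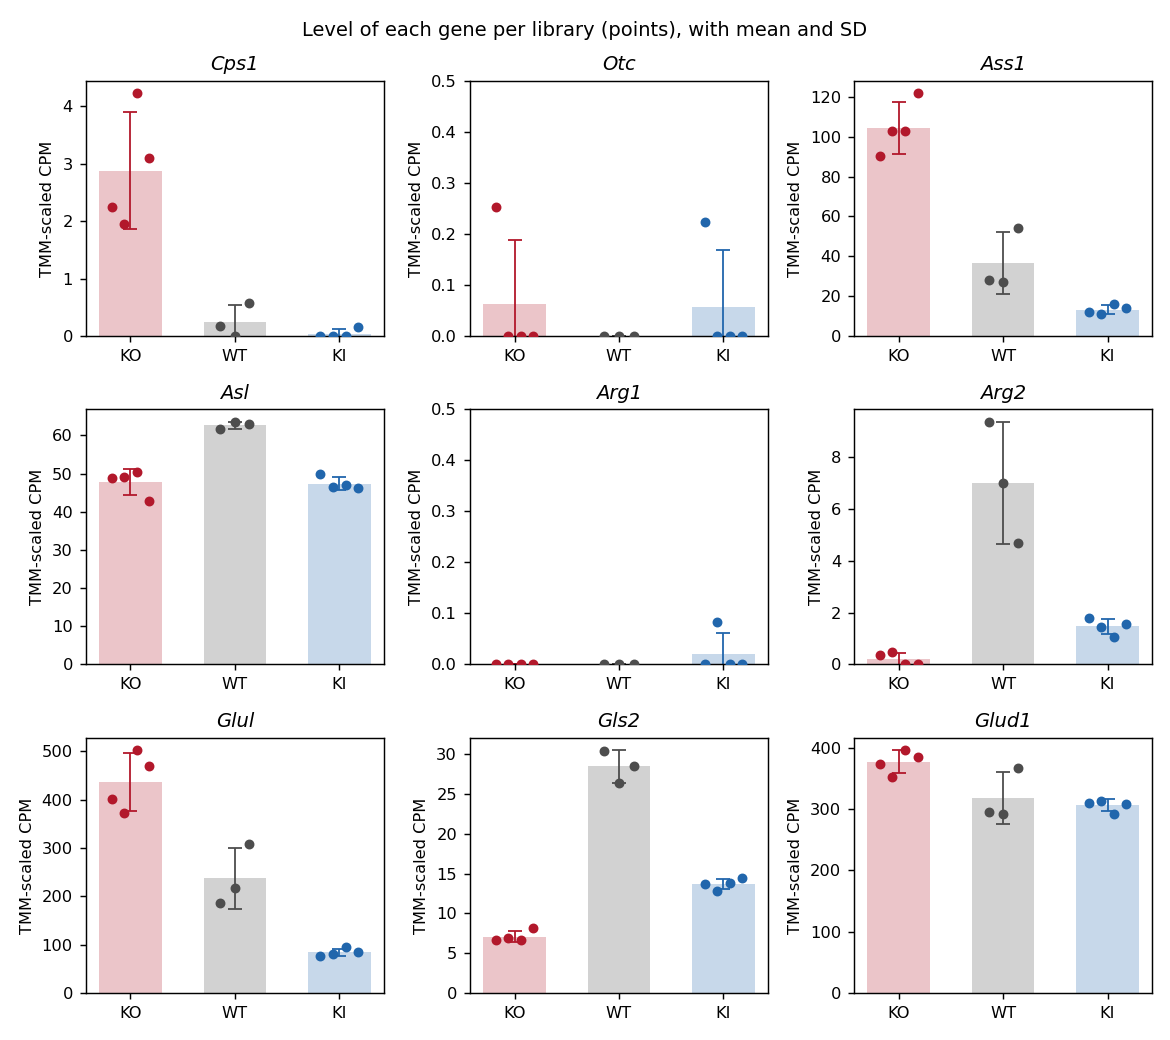
Level of each of the 9 genes in TMM-scaled CPM (vertical axis, linear from 0) in the 4 KO, 3 WT and 4 KI libraries. Each point is a library, and bars with error bars show the mean and SD. *Ass1* and *Glul* are ordered KO, WT, KI from high to low, *Gls2* and *Arg2* are highest in WT and lowest in KO, and *Otc* and *Arg1* are at or near 0 in all libraries.

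*Cps1*, the entry enzyme of the cycle, was counted 80, 66, 141 and 135 times in the KO libraries, 4, 0 and 16 times in WT and 0, 0, 0 and 5 times in KI. The KO libraries were above all others, but the gene remained at a low level of 2.88 ± 1.02 CPM there (SD, n = 4). In the table the gene has 2 entries, which were summed, and both were highest in the KO cells, at 19 to 44 and 44 to 97 counts. The log2 fold change was 3.45 in KO against WT (SE 0.71, adjusted p = 0.00178) and 6.22 in KO against KI (SE 0.72, adjusted p = 4.02e-06, edgeR quasi-likelihood test, Benjamini-Hochberg). Both tests exist because *Cps1* passed the filter only through the KO libraries, where it was high, so the counts carry the description. The folds rest on few counts in the low groups: WT 8 held 16 of the 20 WT counts, and without it the value in KO against WT was 5.02. With all KI libraries the fitted fold of KO over KI was 74.7. Without KI 8 no KI count was left, and the KO level was 106 times a floor of 3 counts over the other 3 KI libraries. That value leaves out the only KI library with counts, so it is no lower bound for the KI group.

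*Otc*, the enzyme of the next step, had counts in only 2 libraries, 9 in KO 5 and 8 in KI 5, and 0 in the other 9. The gene was not tested. A count of 0 allows up to 3 counts, or between 0.0690 and 0.134 CPM depending on the library, which covers counting error only. *Nags*, which makes the activator that CPS1 needs, was counted 4, 6 and 39 times in the WT libraries and 0 in all 8 edited libraries. The WT level was 31.6 times a floor of 3 counts over the KO libraries and 31.0 times that floor over the KI libraries. These values use TMM scaling and leave out the error of the WT counts, so they are no strict lower bounds. They dropped to 10.3-fold and 10.1-fold without WT 8.

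*Ass1*, often described as the rate-limiting enzyme of arginine synthesis, was highest in the KO and lowest in the KI cells. It was at 90.4, 103, 103 and 122 CPM in the KO libraries, at 27.9, 27.3 and 54.3 in the WT libraries and at 11.9, 11.3, 15.9 and 14.1 in the KI libraries. No library of a group overlapped with another group, and WT 8 was the WT library nearest to the KO cells. *Ass1* was 2.82-fold higher in KO than in WT (log2 fold change 1.50, SE 0.23, adjusted p = 0.000302) and 2.75-fold lower in KI than in WT (log2 fold change -1.46, SE 0.23, adjusted p = 0.000350). Among the hepatocyte markers, *Alb*, the albumin gene, had the same order of groups, with means of 4114, 513 and 246 CPM, as had *Apoa1*. The other markers did not. *Serpina1a* had the reverse order, with means of 0.594, 8.03 and 11.5 CPM in KO, WT and KI. *Trf* and *Ttr* were highest in WT, and *Apob*, *Krt8* and *Krt18* in KI. *Hnf4a* was highest in KO and lowest in WT. Whether the differences in markers have a part in the *Ass1* values was not tested. The difference of *Ass1* between the edited lines was 7.88-fold (log2 fold change 2.98, SE 0.13, adjusted p = 9.50e-11, edgeR quasi-likelihood test, Benjamini-Hochberg).

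*Asl*, which acts right after *Ass1*, did not follow it. Its level was 48.8, 49.1, 50.4 and 42.8 CPM in the KO libraries, 61.6, 63.4 and 62.9 in the WT libraries, and 49.8, 46.4, 47.1 and 46.1 in the KI libraries. WT was above both edited lines, which overlapped with each other. The log2 fold change was -0.41 in KO against WT (SE 0.11, adjusted p = 0.00924) and -0.41 in KI against WT (SE 0.12, adjusted p = 0.0167, edgeR quasi-likelihood test). Between KO and KI it was 0.02, with a 95% interval from -0.17 to 0.20 (adjusted p = 0.888, edgeR). Both calls against WT were lost with library totals, at -0.00 (adjusted p = 0.994) and -0.08 (adjusted p = 0.697, edgeR), and the KI call was also lost without WT 7 or without KI 6, with adjusted p of 0.0564 and 0.0522. Per kilobase of exon, the ratio of *Ass1* to *Asl* was 3.71, 4.19, 4.08 and 5.69 in the KO, 0.906, 0.861 and 1.73 in the WT and 0.478, 0.487, 0.675 and 0.611 in the KI libraries. Thus, by these lengths, *Ass1* exceeded *Asl* in all KO libraries and in WT 8, and was below it in the rest. This ratio does not depend on the scaling between libraries. Its position against 1 does depend on the exon lengths used, 2.41 kb for *Ass1* and 4.83 kb for *Asl*.

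Of the arginases, the liver form *Arg1* was close to absent, with 3 counts in KI 6 and 0 in the other 10 libraries, and was not tested. *Arg2*, the mitochondrial form that is widely expressed outside the liver, held nearly all arginase reads. It had 13, 16, 0 and 0 counts in the KO, 210, 173 and 132 in the WT and 64, 53, 41 and 51 in the KI libraries, so the 3 groups were fully apart. *Arg2* was 4.76-fold lower in KI than in WT (log2 fold change -2.25, SE 0.29, adjusted p = 7.50e-05, edgeR quasi-likelihood test). In the KO cells it was lower still, with a log2 fold change of -5.10 against WT (SE 0.76, adjusted p = 0.000236) and -2.81 against KI (SE 0.79, adjusted p = 0.00697, edgeR). Both tests of the KO cells exist because *Arg2* passed the filter through the other group, so the counts carry the description, and the size of the fold depends on the counts of KO 5 and KO 6. Exons of *Arg2* overlap with those of *Vti1b* on the other strand, and the counting is not stated to use strand. *Vti1b*, a vesicle fusion protein, was at 42.9 ± 5.47 CPM in the KO (n = 4), 111 ± 33.2 in the WT (n = 3) and 68.6 ± 7.27 in the KI cells (n = 4, SD), with log2 fold changes of -1.39 (adjusted p = 0.000141) and -0.69 (adjusted p = 0.0103, edgeR) against WT. Its part in the *Arg2* values was not tested.

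*Glul*, for glutamine synthetase, had the highest level per kilobase of exon in the KO cells and had the same order of groups as *Ass1*. Its level was 401, 372, 502 and 469 CPM in the KO libraries, 186, 218 and 308 in the WT libraries, and 76.4, 80.1, 94.0 and 84.0 in the KI libraries. The groups did not overlap, and WT 8 was again the WT library nearest to the KO cells. *Glul* was 1.81-fold higher in KO than in WT (log2 fold change 0.86, SE 0.19, adjusted p = 0.00247) and 2.84-fold lower in KI than in WT (log2 fold change -1.50, SE 0.17, adjusted p = 2.90e-05). KO exceeded KI by 5.23-fold (log2 fold change 2.39, SE 0.11, adjusted p = 1.71e-10, edgeR quasi-likelihood test, Benjamini-Hochberg).

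*Gls2*, the liver-type glutaminase, moved down in both edited lines. It was at 6.70, 6.90, 6.60 and 8.10 CPM in the KO libraries, at 30.4, 26.3 and 28.6 in the WT libraries and at 13.6, 12.8, 13.8 and 14.4 in the KI libraries. The spread within each group was small against the gaps between them. *Gls2* was 4.07-fold lower in KO than in WT (log2 fold change -2.02, SE 0.14, adjusted p = 1.29e-06) and 2.08-fold lower in KI than in WT (log2 fold change -1.05, SE 0.14, adjusted p = 7.78e-05). KO was also 1.93-fold below KI (log2 fold change -0.95, SE 0.13, adjusted p = 1.69e-05, edgeR quasi-likelihood test, Benjamini-Hochberg). *Spryd4*, whose exons overlap with *Gls2* on the other strand, was not called in the 3 comparisons, with adjusted p of 0.109, 0.745 and 0.0753 (edgeR).

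The ratio of *Glul* to *Gls2*, which work in opposite directions on glutamine, sets the 2 genes side by side per kilobase of exon and does not depend on the scaling between libraries. It was 62.6, 56.4, 79.5 and 60.6 in the KO, 6.39, 8.65 and 11.3 in the WT and 5.85, 6.52, 7.10 and 6.08 in the KI libraries. The KO libraries were far above the others, and WT and KI overlapped.

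**Figure D2:**
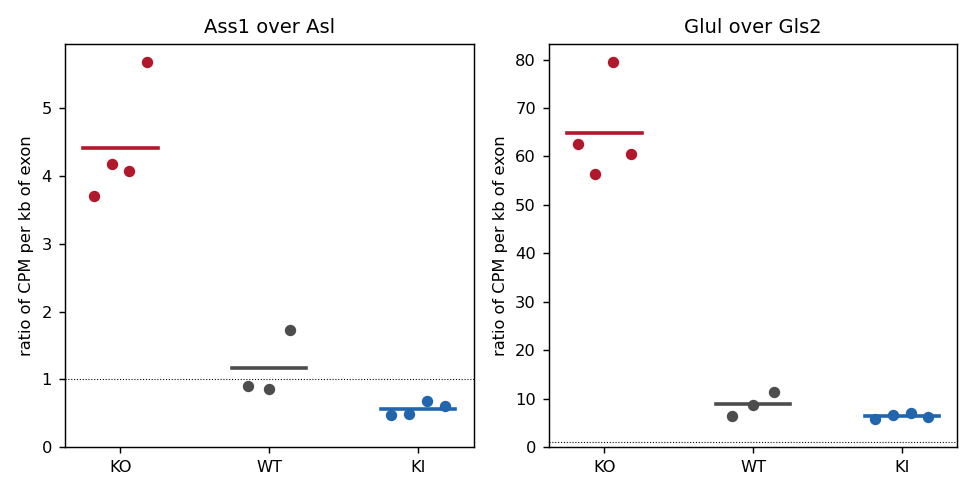
Ratio of *Ass1* to *Asl* (left) and of *Glul* to *Gls2* (right), from CPM per kilobase of exon (vertical axes, linear from 0). Points are libraries, horizontal lines are group means, and the dotted line marks a ratio of 1. Both ratios are highest in the KO libraries, and for *Glul* to *Gls2* the WT and KI libraries overlap.

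*Glud1*, for glutamate dehydrogenase, was called only between the edited lines. Its level was 374, 353, 396 and 386 CPM in the KO, 295, 292 and 367 in the WT and 310, 314, 292 and 309 in the KI libraries. KO and KI did not overlap, whereas WT 8 fell among the KO libraries. The log2 fold change was 0.31 in KO against KI (SE 0.08, adjusted p = 0.00361), 0.23 in KO against WT (95% interval -0.06 to 0.51, adjusted p = 0.156) and -0.06 in KI against WT (95% interval -0.35 to 0.24, adjusted p = 0.769, edgeR quasi-likelihood test). The value in KO against WT passed the test without WT 8 (0.37, adjusted p = 0.00798) and with library totals (0.62, adjusted p = 0.00726, edgeR).

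**Figure D3:**
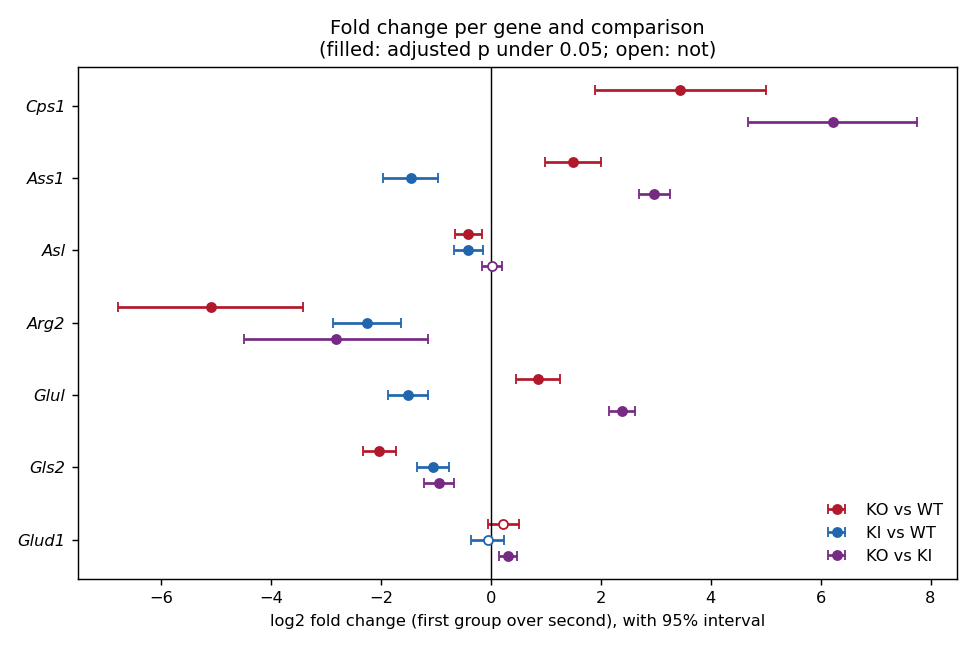
Log2 fold change with its 95% interval (horizontal axis) of the 7 tested genes in KO against WT, KI against WT and KO against KI. Filled circles passed the test at an adjusted p under 0.05 and open circles did not. *Ass1* and *Glul* lie on opposite sides of 0 in the comparisons with WT, *Arg2* and *Gls2* lie below 0 in both, and *Cps1* has no value in KI against WT.

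Set side by side per kilobase of exon, the order of levels changed between the lines. In the KO cells *Glul* led with 131 CPM per kilobase, followed by *Glud1* with 89.6, *Ass1* with 43.2, *Asl* with 9.89, *Gls2* with 2.04, *Cps1* with 0.519 and *Arg2* with 0.147, and the ranges of neighbours did not overlap down to *Arg2*. In the WT cells *Glud1* had 75.5 and *Glul* 71.4 CPM per kilobase, and *Ass1* had 15.1 and *Asl* 13.0. The members of each of these pairs overlapped in their ranges and could not be ordered. *Gls2* (8.19), *Arg2* (4.90) and *Cps1* (0.0447) followed. In the KI cells the order was *Glud1* (72.7), *Glul* (25.2), *Asl* (9.80), *Ass1* (5.50), *Gls2* (3.94) and *Arg2* (1.03 CPM per kilobase), without overlap, and *Otc*, *Arg1* and *Cps1* were near 0.

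The genes whose pattern over the 11 libraries was most like that of a member were found by the root mean square difference of log2 CPM, each gene centred on its own mean, among 12649 genes. For *Ass1* these were *Prune2* (0.204) and *Coro2a* (0.216), for *Glul* *Fads6* (0.219) and *Nudt17* (0.242), and for *Gls2* *Ermp1* (0.151) and *Jag2* (0.184). *Asl* was nearest to *Fam114a1* (0.0513) and *Eif3h* (0.0790), and *Glud1* to *Ilrun* (0.0586) and *Zfand3* (0.0725). The low genes had only distant neighbours, *1700007K13Rik* (0.747) and *Apoa1* (0.749) for *Cps1* and *Defb1* (0.814) and *Fkbp1b* (0.819) for *Arg2*. Among the tested members, *Asl* and *Glud1* differed least from each other (0.279), followed by *Ass1* and *Glul* (0.346).

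Among 9 genes that supply the cycle, 6 were tested. In KO against WT 2 were higher, *Car5b* (log2 fold change 1.28), a mitochondrial carbonic anhydrase, and *Slc25a12* (0.88), an aspartate/glutamate carrier. The 3 that were lower included the malate dehydrogenase *Mdh1* (-1.34) and *Slc25a13* (-0.76), the carrier known as citrin, which was not called with library totals (-0.35, adjusted p = 0.0644, edgeR). In KI against WT none was higher and 3 were lower, with *Mdh1* at -1.12 and *Slc25a13* at -0.85. Over all tested genes 26.7% were called higher and 28.4% lower in KO, and 21.2% and 21.0% in KI. With library totals the counts were 3 higher and 1 lower in KO, and 0 higher and 2 lower in KI. By that scaling 5676 of all 13359 tested genes were higher and 2123 lower in KO, and 4621 and 1438 of 13534 in KI. The ornithine carrier *Slc25a15* was not called in the 3 comparisons with TMM (log2 fold changes 0.11, 0.11 and 0.02). With library totals it passed in KO against WT (0.51, adjusted p = 0.0247, edgeR).

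Of 15 tested enzymes that use glutamine or glutamate, 10 were higher and 1 was lower in KO against WT, with a median log2 fold change of 0.60 against -0.03 over all genes, and 8 were higher and 2 lower in KI against WT, with a median of 0.48 against -0.02. The share called over all genes was 26.7% higher and 28.4% lower in KO, and 21.2% higher and 21.0% lower in KI. *Cad*, which starts pyrimidine synthesis from glutamine, rose by 2.16 on the log2 scale in KO and by 1.62 in KI. *Asns*, asparagine synthetase, rose by 1.92 in KO and by 0.59 in KI, and the mitochondrial glutamate carrier *Slc25a22* by 1.93 and 0.99. *Pfas*, an enzyme of purine synthesis, rose by 1.15 in KO and by 1.76 in KI. It was also higher in KI than in KO (log2 fold change of KO against KI -0.58). Both lower genes in KI, *Gfpt1* (-0.56) and *Got1* (-0.36), were not called with library totals.

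Around arginine, ornithine, proline and polyamines 17 genes were tested, with 9 higher and 2 lower in KO against WT and 7 higher and 2 lower in KI against WT, where 55.1% and 42.3% of all genes were called in either direction. *Oat*, which turns ornithine into glutamate semialdehyde, was at 441, 381, 373 and 344 CPM in the KO libraries, 292, 206 and 173 in the WT libraries and 285, 274, 249 and 270 in the KI libraries. KO was above the other groups, which overlapped with each other. The log2 fold change of *Oat* was 0.76 in KO against WT (SE 0.18, adjusted p = 0.00390) and 0.52 in KO against KI (SE 0.09, adjusted p = 0.000192, edgeR quasi-likelihood test). In KI against WT it was 0.27 (adjusted p = 0.220), and passed with library totals (0.62, adjusted p = 0.00356) or without WT 5-6 (0.51, adjusted p = 0.0169, edgeR). *Prodh*, proline dehydrogenase, rose most in the list in KO (log2 fold change 3.13) and by 0.86 in KI. *Srm*, spermidine synthase, rose by 2.46 in KO and by 1.95 in KI. *Odc1*, which makes putrescine from ornithine, rose by 0.32 in KO and by 1.08 in KI. *Azin2*, an antizyme inhibitor, fell in both, with log2 fold changes of -1.21 and -1.54.

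Of 10 transporters of glutamine and arginine tested, 6 were higher and none lower in KO against WT, and 5 were higher and 1 lower in KI against WT, beside 26.7% higher and 28.4% lower of all genes in KO and 21.2% and 21.0% in KI. The lower gene was *Slc7a2*, a cationic amino acid transporter that carries arginine, which was at 63.1 ± 5.57 CPM in the KO (n = 4), 25.6 ± 5.88 in the WT (n = 3) and 2.13 ± 0.724 in the KI cells (n = 4, SD). It rose by 1.28 in KO and fell by 3.59 in KI on the log2 scale, the same order of groups as *Ass1* and *Glul*. *Slc7a5*, a carrier that exchanges glutamine for large neutral amino acids, rose by 2.41 in KO and by 0.89 in KI. *Slc7a1*, another arginine carrier, rose by 1.48 in KO and by 0.87 in KI.

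The zonal genes of the liver were mostly too low to test, with 5 of 13 perivenous and 4 of 8 periportal genes above the filter. Of the perivenous genes 0 were higher and 4 lower in KO against WT, and 1 was higher and 3 were lower in KI against WT, beside the 28.4% and 21.0% of all genes called lower. *Axin2*, a target of Wnt signalling, fell in both lines (-2.62 in KO and -1.75 in KI), opposite in KO to the perivenous enzyme gene *Glul*. Among the periportal genes, *Hal*, which degrades histidine, rose by 2.35 in KO from a level under 1 CPM, whereas *Hsd17b13*, a lipid droplet enzyme, fell in both lines, with log2 fold changes of -1.38 in KO and -3.74 in KI. *Hal* had 28 counts over the WT libraries and passed the filter only through the KO libraries, where it was high.

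All 12 genes of a list of regulators of urea cycle or glutamate enzymes, which is a choice and not a full set, were tested. In KO against WT 5 were higher and 2 lower, and in KI against WT 1 was higher and 3 were lower, beside 55.1% and 42.3% of all genes called, so the list as a whole stood near the background. *Cebpa*, a factor that controls urea cycle genes in liver, rose by 1.70 in KO and was 1.96 higher in KO than in KI on the log2 scale, and *Hnf4a*, a master factor of hepatocytes, rose by 1.35 in KO. *Foxa1* rose by 2.35 in KO and by 1.72 in KI, while *Foxa3* fell in both, where KO cells had 6.57 ± 1.20 CPM and KI cells 11.1 ± 2.86 (SD, n = 4 each), against 25.9 ± 5.54 for WT (SD, n = 3). *Foxa1* was low in WT, with 47 counts in all and 0.363 to 0.814 CPM. It passed the filter through the edited lines, where it was high, so its calls follow in part from the filter. The call of *Nr3c1*, the glucocorticoid receptor, which was -0.31 in KO against WT, was lost in 8 of 15 alternatives, among them library totals, where its sign turned (0.10), and leaving out any KO library. Its call in KI against WT was lost in 7 of 15.

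The medians of these lists, beside -0.03 and -0.02 over all genes, were in KO against WT and KI against WT -0.24 and -0.43 for the supply of the cycle, 0.32 and 0.32 for arginine to polyamines, 0.59 and 0.16 for the transporters, -1.09 and -0.59 for perivenous genes, 0.13 and -0.86 for periportal genes, and -0.03 and -0.05 for the regulators. With library totals these medians, beside 0.38 and 0.31 over all genes, were 0.18 and -0.07 for the supply, 0.73 and 0.64 for arginine to polyamines, 1.00 and 0.48 for the transporters, -0.69 and -0.27 for perivenous genes, 0.56 and -0.56 for periportal genes, and 0.39 and 0.27 for the regulators. By that scaling, 5676 of all 13359 tested genes were called higher and 2123 lower in KO. In KI these were 4621 and 1438 of 13534. Beside that, 12 enzymes of glutamine and glutamate were called higher and 0 lower in KO, and 10 and 0 in KI. For arginine to polyamines these counts were 14 and 1 in KO, and 10 and 2 in KI. Among the regulators they were 5 and 1 in KO, and 3 and 1 in KI, and among the perivenous genes 0 and 3 in KO, and 1 and 1 in KI.

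**Figure D4:**
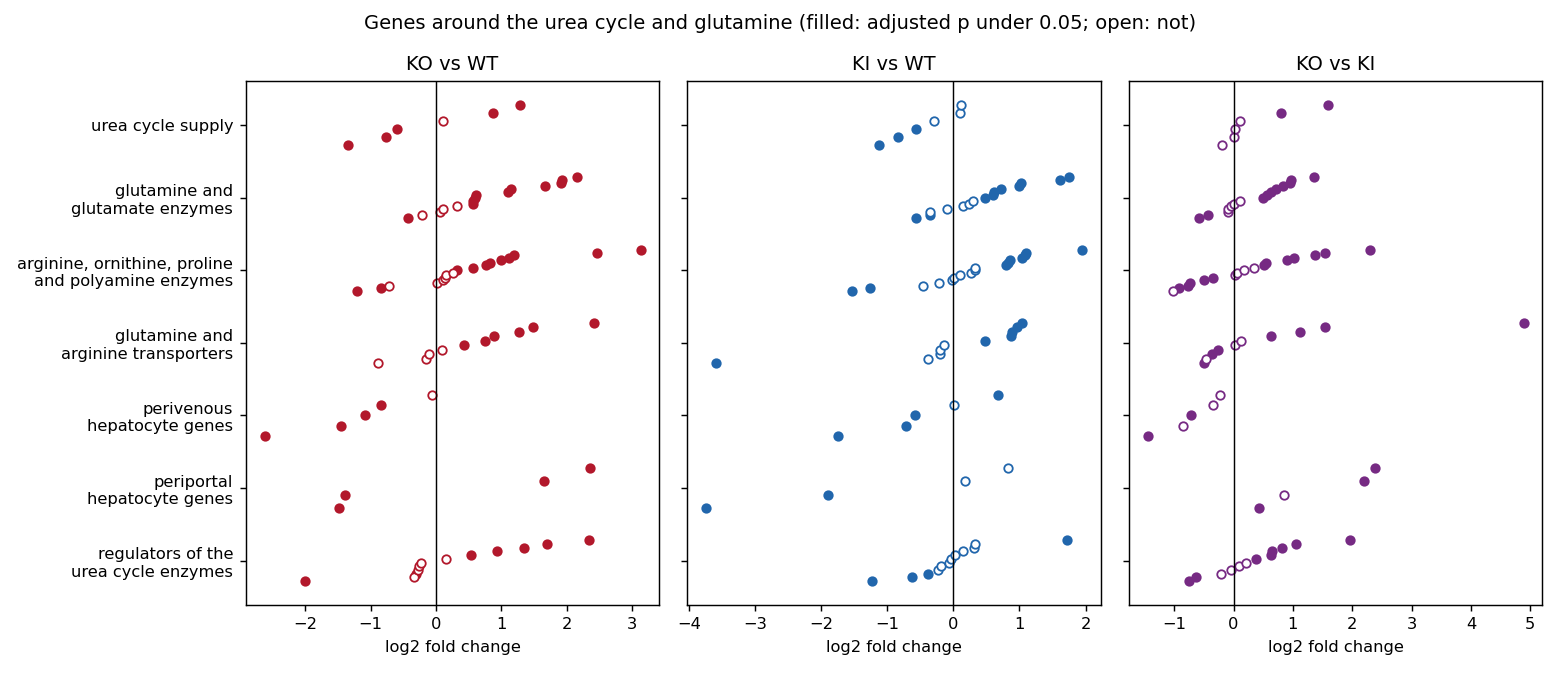
Log2 fold change (horizontal axis) of the tested genes of 7 lists around the urea cycle and glutamine in KO against WT, KI against WT and KO against KI, with a separate scale in each panel. Each circle is a gene, filled where the adjusted p was under 0.05. Enzymes of glutamine and glutamate lie mostly above 0 in both comparisons with WT, and *Slc7a2* is the transporter far below 0 in KI against WT.

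Whole chromosomes differed in their medians between the lines, so each member was set beside the other tested genes of its chromosome. In KO against WT the median was 0.27 on chromosome 2, where *Ass1* lies, -0.34 on chromosome 12 (*Arg2*), -0.36 on chromosome 14 (*Glud1*) and -0.10 on chromosome 1 (*Cps1* and *Glul*). In KO against KI it was 0.38 on chromosome 2 and -0.42 on chromosome 12. The values of *Ass1*, *Arg2*, *Glul*, *Gls2* and *Cps1* lay outside the quartiles of their chromosome wherever they were tested. Many other genes also lay there. In KO against WT, the share of the chromosome's other genes at least as far from 0 was 31.3% for *Glul* and 12.2% for *Ass1*. It was 10.2% for *Gls2*, 4.49% for *Cps1* and 3.97% for *Arg2*. *Oat* lies on chromosome 7, whose median was 0.53 in KO against WT with an upper quartile of 1.00, and its own value of 0.76 was within that range. The part of such differences in the members' values was not tested.

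**Figure D5:**
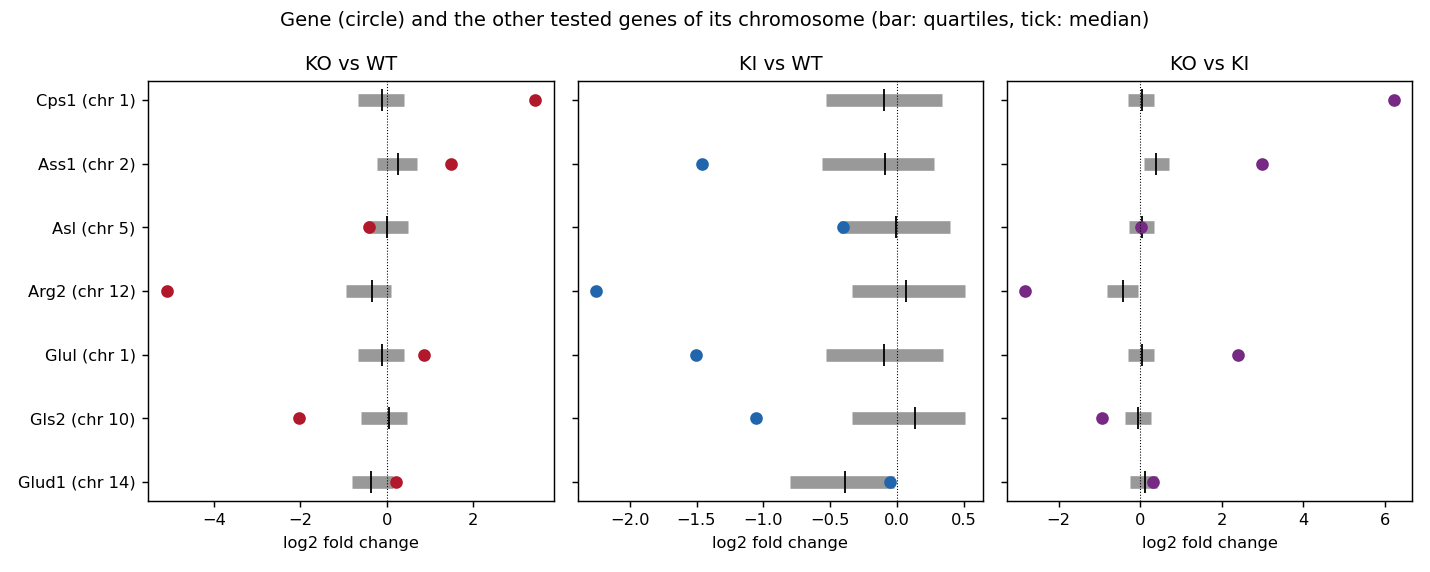
Log2 fold change (horizontal axis) of the 7 tested genes (circles) beside the other tested genes of the same chromosome, whose quartiles are drawn as grey bars and medians as ticks, with a separate scale in each panel. *Ass1*, *Arg2*, *Glul* and *Gls2* lie outside the bars in all 3 panels, and *Glud1* and *Asl* lie at or near them.

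Markers of other cell types also moved between the groups. The summed level of 5 cholangiocyte markers was between 1339 and 1503 CPM in the KO, between 2973 and 4378 in the WT and between 2604 and 3082 in the KI libraries, with *Epcam* at 0 in all. *Spp1* made up most of the fall, with means of 246 CPM in KO and 2520 in WT, while *Krt19* was higher in KO than in WT (1097 against 770 CPM, log2 fold change 0.49, adjusted p = 0.0117, edgeR). The sum of 4 macrophage markers was 1.32 to 2.21 CPM in the KO, 6.73 to 9.20 in the WT and 2.52 to 5.66 in the KI libraries, with *Adgre1* at 0 in all. The sums of 6 fibroblast and stellate cell markers and of 3 endothelial markers stayed at or under 1.15 and 0.425 CPM. *Gls2* and *Arg2* shared with the macrophage sum the order WT, KI, KO from high to low, and the cholangiocyte sum was lowest in KO, while WT and KI overlapped. The part of other cell types in the values of these genes was not tested.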

How the data were processed

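RNA of 4 KO, 3 WT and 4 KI libraries was measured. The counts per gene are as deposited by the authors, not normalized. The submitters' processing notes name HISAT2, StringTie, TopHat2 and Bowtie2 without roles, and the genome build is not given in the sources used here. Of 26472 lines, 10 with broken fields were left out, and counts were summed by gene name. The deposited FPKM columns and the authors' fold changes and p-values were not used.

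Low genes were removed with filterByExpr. The rest were TMM-scaled and tested in edgeR 4.0.16 (R 4.3.3; quasi-likelihood, robust, Benjamini-Hochberg over all tested genes, called at adjusted p under 0.05), with the libraries of the 2 groups compared. The text names the 9 members, *Txndc5*, *Nags*, *Slc25a15*, *Oat*, the 2 genes most like each member, and up to 3 called genes with the largest rise and fall per list and comparison. Some results are not reported here. *Vti1b* and *Spryd4* were named because they overlap with members. Members and lists were chosen with earlier results of these data known. Exon lengths come from GENCODE M21. The test was run on simulated data first. Alternatives were library totals, DESeq2 1.42.0 and its size factors, no filter, all libraries in 1 fit, a replicate block, the entry with the most counts, leaving out the top unannotated entry and leaving out each library. Replicate numbers were not used as pairs.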

Additional observations from a re-analysis of the deposited data

Results flagged for a closer look

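In 11 of 117 groups of 4 libraries, the highest or lowest library stood apart from the rest, with a gap to its neighbour, as a share of the group's range, above Dixon's critical value, where chance alone gives about 5.85. For the sparse members the ratio was 1, because a single library held all counts: *Cps1* in the KI cells (5 counts in KI 8), *Otc* in the KO cells (9 counts in KO 5), *Otc* in the KI cells (8 counts in KI 5) and *Arg1* in the KI cells (3 counts in KI 6). A gene counted in a single library of a group must be flagged, so these flags cannot be set against the 5.85. *Azin1*, an antizyme inhibitor, was at 138 CPM in KO 7 and between 126 and 127 in the other KO libraries (ratio 0.931). *Ppargc1a*, a coactivator of hepatic metabolism, was at 8.02 CPM in KO 5 and no lower than 9.78 in the others (0.875). *Foxa3* was at 15.4 CPM in KI 6 and between 9.56 and 9.70 in the others (0.976), and *Srm* at 30.7 CPM in KI 6 and between 24.4 and 24.7 in the others (0.965). *Ctps*, CTP synthase, was at 88.4 CPM in KI 8 and between 109 and 113 in the others (0.837), and *Slc7a6*, an amino acid transporter, at 66.2 CPM in KI 8 and between 77.3 and 78.8 in the others (0.884). *Sms*, spermine synthase, was at 34.4 CPM in KI 5 and between 37.3 and 37.8 in the others (0.866).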

How the results depend on the processing

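Over the members' tests, *Ass1* and *Glul* in all 3 comparisons, *Gls2* in KO against WT and KO against KI, and *Arg2* in KI against WT kept their direction and call under every alternative run. When library totals replaced TMM, the log2 fold change turned in sign for *Glud1* in KI against WT (0.26), and the mean level of *Asl* was 52.3, 52.4 and 49.6 CPM in KO, WT and KI. Libraries with the same replicate number did not vary together (correlation of deviations -0.19 to 0.21), and 0 of 4 KO libraries correlated best with the KI library of its number, so the numbers gave no pairs. With the replicate block, where WT shares 2 numbers with each edited line, 3 members in place of 5 and 10 listed genes in place of 38 of 69 were called in KI against WT (6 members and 43 genes in KO against WT, 6 and 42 in KO against KI), where *Asl* (adjusted p = 0.499) and *Gls2* (-0.97, adjusted p = 0.0564, edgeR) lost their call, and *Arg2* in KO against WT was at -10.51. Leaving out each library in turn called 6 to 7 members in KO against WT, 4 to 5 in KI against WT and 6 in KO against KI, and 43 to 50, 32 to 41 and 42 to 44 listed genes. The shares of all genes called with the block and without single libraries are not given here. These counts therefore do not separate a change in the lists from one over all genes. The log2 fold change crossed 0 in the fits without single libraries for *Glud1* in KI against WT (-0.114 to 0.0605) and, in KO against KI, for *Asl* (-0.0098 to 0.0656) and *Slc25a15* (-0.0539 to 0.102). The causes were not tested. The depth leaves *Otc*, *Arg1* and *Nags* untested.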
